A study of Mus musculus with 38 samples.

Results

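Cultured mouse epidermal stem cells (EpdSCs) in which wild-type (WT) SOX9 had been switched on with doxycycline (DOX) were compared, domain by domain, with the same kind of cells without DOX, using called domains of the histone mark H3K4me1 from MINT-ChIP, a multiplexed chromatin immunoprecipitation in which samples are barcoded before pooling. The members were the 110589 domains of the WT list without DOX and the 116042 domains of the WT list with DOX, together 226631 of the 1006702 domains and peaks in the 14 lists of the series. A domain of the DOX list with no overlap of even 1 bp in the no-DOX list was called gained (33788 domains), and a domain of the no-DOX list with no overlap in the DOX list was called lost (27731 domains). The remaining 82858 domains of the no-DOX list and 82254 of the DOX list overlapped each other and were called kept.

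H3K4me1, monomethylation of lysine on histone H3, is placed by the MLL3 and MLL4 complexes at enhancers, both poised and active, and is found there with or without acetylation. SOX9 binds DNA through a high-mobility-group (HMG) domain, can engage closed chromatin, and in skin is normally kept to the hair follicle, where it maintains the stem cells and the outer root sheath. Epidermal stem cells do not normally make it, and in cartilage it is the main driver of the collagen programme.

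All cells of this comparison carried *Krt14-rtTA*, which expresses the DOX-dependent activator from the keratin 14 promoter, and were keratinocytes from the back skin of newborn male mice. They had been transduced in culture with a lentivirus that carries MYC-tagged WT SOX9 behind the DOX-responsive TRE promoter and had been selected with puromycin, with or without DOX, which was added to the medium. The 2 further lists used for comparison came from cells with ΔHMG-SOX9, which lacks the DNA-binding domain, and ΔTA-SOX9, which lacks the transactivation domain, each with DOX. The whole series held 36 skin samples and 2 culture libraries, a low and a high micrococcal nuclease digest that carried all culture conditions told apart by barcode, and each list pooled them. No list exists per digest or per culture, the duration of DOX in culture is not given in the sources used here, and the no-DOX cells stand for cells without SOX9 only as far as the TRE promoter is silent there. Since no spread between cultures could be had, no p-value was computed, and 95% intervals below are exact Clopper-Pearson intervals that cover counting error only.

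Stretches of 120 bases are printed for 6 changed domains that the results below return to and for a gained domain with a paired SOX site. They are given because sequence was one of the clearest differences between gained and lost domains. The letters are from the RefSeq assembly GRCm38.p6, 5′ to 3′. Capitals in the first 4, from gained domains, mark a SOX word (AACAATG or AACAAAG, either strand).
*Col9a1*, chr1:24227266-24227385, + strand: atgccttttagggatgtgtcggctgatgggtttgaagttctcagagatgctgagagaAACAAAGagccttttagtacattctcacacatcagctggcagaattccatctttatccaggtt
*Gprin3*, chr6:59432581-59432700, + strand: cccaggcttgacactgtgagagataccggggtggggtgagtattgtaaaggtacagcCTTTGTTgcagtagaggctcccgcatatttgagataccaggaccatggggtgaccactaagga
*Chl1*, chr6:103541524-103541643, + strand: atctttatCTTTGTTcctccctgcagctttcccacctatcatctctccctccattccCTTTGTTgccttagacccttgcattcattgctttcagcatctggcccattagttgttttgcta
*Ehf*, chr2:103352260-103352379, + strand: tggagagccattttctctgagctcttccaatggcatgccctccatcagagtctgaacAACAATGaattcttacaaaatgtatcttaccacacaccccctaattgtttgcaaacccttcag
Capitals in the next 2, from lost domains, mark an AP1 word (TGANTCA), the site of FOS and JUN dimers.
*Btg1-ps1*, chrX:38021215-38021334, + strand: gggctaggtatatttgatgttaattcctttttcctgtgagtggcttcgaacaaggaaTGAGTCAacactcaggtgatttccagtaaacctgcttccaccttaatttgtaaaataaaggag
*Plekha5*, chr6:140467876-140467995, + strand: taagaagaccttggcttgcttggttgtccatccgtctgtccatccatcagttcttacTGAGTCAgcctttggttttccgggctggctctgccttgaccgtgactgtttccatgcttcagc
Capitals in the last, from a gained domain nearest *Ccdc191*, mark 2 short SOX sites (ACAAT) that face each other 3 to 5 bases apart, with the bases between them.
*Ccdc191*, chr16:43920414-43920533, + strand: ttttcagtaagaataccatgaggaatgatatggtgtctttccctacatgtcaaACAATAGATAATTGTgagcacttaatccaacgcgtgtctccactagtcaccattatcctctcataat
The *Ccdc191* domain was 595 bp wide with a fold of 8.43, where fold is the enrichment of reads over the local background as the authors' caller gave it. In all, 5 gained domains with a fold of at least 7 had a paired SOX site in their central 500 bp. This one is an example and need not be the strongest. The stretch at *Chl1* held 2 SOX words, the *Col9a1*, *Gprin3* and *Ehf* stretches 1 each.

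*Sox9* itself, the induced gene, could not be checked as it would be in RNA, because H3K4me1 is a mark on chromatin and the lentiviral copy holds the coding sequence. At the endogenous gene (chromosome 11, 112782224 to 112787760, plus strand) the no-DOX list held a domain of 2003 bp with a fold of 3.15 and the WT DOX list a domain of 3495 bp with a fold of 3.24. The DOX domain began further upstream and took in the start site, while both ended near the last coding base, the no-DOX domain 4 bp past it and the DOX domain 20 bp before it. Reads from the gene and from the lentiviral copy cannot be told apart here. Within 50 kb of the *Sox9* start site 2 domains were gained and 2 were lost, and covered length was 7.64 kb without DOX and 8.56 kb with it, against 8.38 kb with ΔHMG-SOX9 and 14.2 kb with ΔTA-SOX9.

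The label of the cells was checked on marker loci. All 6 keratinocyte markers (*Krt5*, *Krt14*, *Itga6*, *Itgb4*, *Col17a1* and *Trp63*) carried H3K4me1 in their gene bodies in both lists, and a median of 20.1 kb was covered within 50 kb of their start sites without DOX and 24.7 kb with it. The same median was 3.23 kb and 3.86 kb for 8 fibroblast markers, of which *Dcn* and *Lum* had no domain in the gene body in either list. For 7 endothelial markers it was 4.46 kb and 4.10 kb. Immune loci were covered more, at 11.8 kb and 11.9 kb, with none in the bodies of *Cd207* and *Cd74*. Such windows hold neighbouring genes, and H3K4me1 is not expression. In a bulk sample fewer cells of a type and less of the mark per cell cannot be told apart.

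Gained domains made up 29.1% of the DOX list and lost domains 25.1% of the no-DOX list. Of the bases covered without DOX, 67.2% were also covered with DOX. The gained domains spanned 27.5 Mb and the lost domains 17.0 Mb. They differed in size: the median width was 630 bp for gained and 469 bp for lost domains, against 1050 bp for kept domains of the no-DOX list. Median fold lay closer together, at 3.39, 3.28 and 3.69. Changed domains seldom lay within 1000 bp of a domain of the other list, but domains of the same list seldom lay that close either. Joining domains less than 1000 bp apart left 115165 of 116042 DOX domains and 109464 of 110589 no-DOX domains. Signal called as part of a kept domain counts as kept, so the gaps that follow cannot tell separate sites from spread of kept domains. The median gap from a gained domain to the nearest no-DOX domain was 5810 bp, and only 4.25% lay within 1000 bp of one, while 35.8% were over 10000 bp away. For lost domains the gap was 4859 bp, 5.21% lay within 1000 bp and 27.6% over 10000 bp. The balance of gained over lost domains depended on list length, since 30723 were gained and 29950 lost when both lists were shortened to the same number of top-scoring domains.

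The asymmetry lay in the wide and strongly enriched domains. Among weak domains the lists behaved alike: 28.8% of DOX domains and 28.4% of no-DOX domains with a fold of at most 2.5 had no counterpart. Among domains with a fold over 5, 22.98% of the DOX list (95% interval 22.2 to 23.7) and 10.99% of the no-DOX list (10.5 to 11.5) had none. Above a fold of 8 it was 85 of 422 DOX domains, or 20.1%, and 23 of 585 no-DOX domains, or 3.93%. Width gave the same picture. Of the domains wider than 3000 bp, 248 of 4464 in the DOX list were gained and 23 of 3447 in the no-DOX list were lost, or 5.56% and 0.667%. Of the domains that were both at least 1000 bp wide and at a fold of at least 4, 2919 were gained (17.5% of 16637) and 821 were lost (5.08% of 16173).

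**Figure D1:**
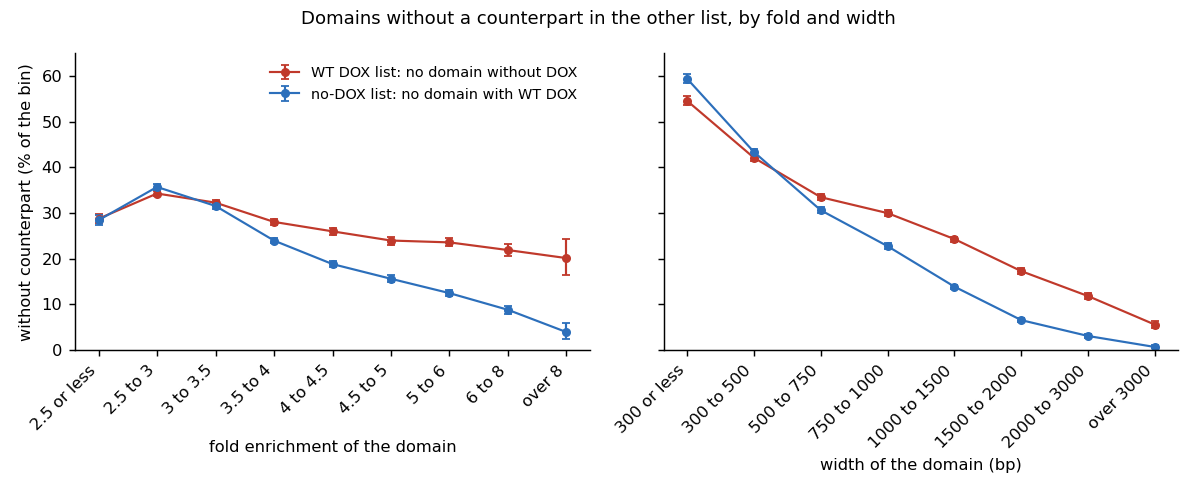
Share of the domains in each bin (percent, vertical axis) that had no overlapping domain in the other list, by fold enrichment (left) and by width in bp (right); red, WT DOX list; blue, no-DOX list; bars, exact 95% intervals for counting error. The lines lie close together up to a fold of 3.5, and in the highest fold bin red stands at 20.1% and blue at 3.93%; below a width of 300 bp blue is the higher, at 59.4% against 54.6%.

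Changed domains were mostly far from start sites. Of the gained domains 86.5% were distal, that is over 2500 bp from the nearest annotated start site, as were 85.0% of the lost and 71.8% of the kept domains. The median distance was 16117 bp for gained, 13808 bp for lost and 8991 bp for kept domains. Only 2.25% of the gained and 2.58% of the lost domains lay over a start site, against 9.09% of the kept. The centre of the gained domains was intronic in 51.9%, intergenic in 37.3% and exonic in 3.42%, and the other 7.41% lay within 1000 bp of a start site. Lost domains were more often intergenic, with 47.2% intronic and 40.5% intergenic. Gained domains were also poorer in GC, with a median of 45.1% against 47.5% for lost and 47.7% for kept domains.

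The sequence at the centre separated the classes. SOX words were present in the central 500 bp of 31.7% of the gained domains (31.2 to 32.2), 18.0% of the lost (17.6 to 18.5) and 19.4% of the kept domains (19.1 to 19.7). At least 2 SOX words were found in 6.07%, 1.96% and 2.34%. The paired SOX sites were rare but followed the same order, in 168 gained domains (0.497%), 40 lost (0.144%) and 142 kept domains (0.171%). AP1 words ran the other way, in 19.4% of gained, 29.8% of lost and 25.9% of kept domains. The GATA word AGATAA was present in 28.7%, 24.9% and 23.6%, the RUNX word TGTGGTT in 12.6%, 11.5% and 11.9%, and the TEAD word GGAATG in 30.5%, 30.3% and 30.4%. All words were searched on both strands, and the short site ACAAT is part of the first SOX word. For scale, among 32851 RefSeq promoter windows of 300 bp a SOX word was present in 9.36% and an AP1 word in 7.81%. A match is a match of letters and not a measured binding site.

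Since gained domains were poorer in GC, the shares were read within bins of GC content. At 40 to 45% GC the SOX word was in 34.9% of the gained, 22.6% of the lost and 24.9% of the kept domains, and the AP1 word in 21.1%, 33.7% and 30.01%. The GATA word differed little within the bins, at 31.7%, 32.0% and 30.5% for 40 to 45% GC and 15.8%, 15.3% and 15.4% for 50 to 60% GC. At 50 to 60% GC the SOX shares were 20.7%, 11.4% and 13.4%. The share with a SOX word climbed with enrichment in gained domains, from 26.9% at a fold under 3 to 36.6% at a fold of 4 to 5 and 38.1% at 5 to 7. It stayed between 18.7% and 19.7% in kept domains over the same bins. The AP1 share climbed with fold in lost domains, from 25.5% under 3 to 38.3% at 5 to 7, and in kept domains from 21.4% to 32.1%. Matches were also placed by distance from the domain's centre. Within 200 bp of the centre gained domains held 0.790 SOX words per kb, against 0.503 per kb at 1500 to 2000 bp, a ratio of 1.57. The same ratio was 0.997 in kept and 0.858 in lost domains, so that the words peaked at the centre in the gained domains only among these 3 classes. For AP1 the ratio was 1.42 in gained, 2.37 in lost and 2.13 in kept domains.

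**Figure D2:**
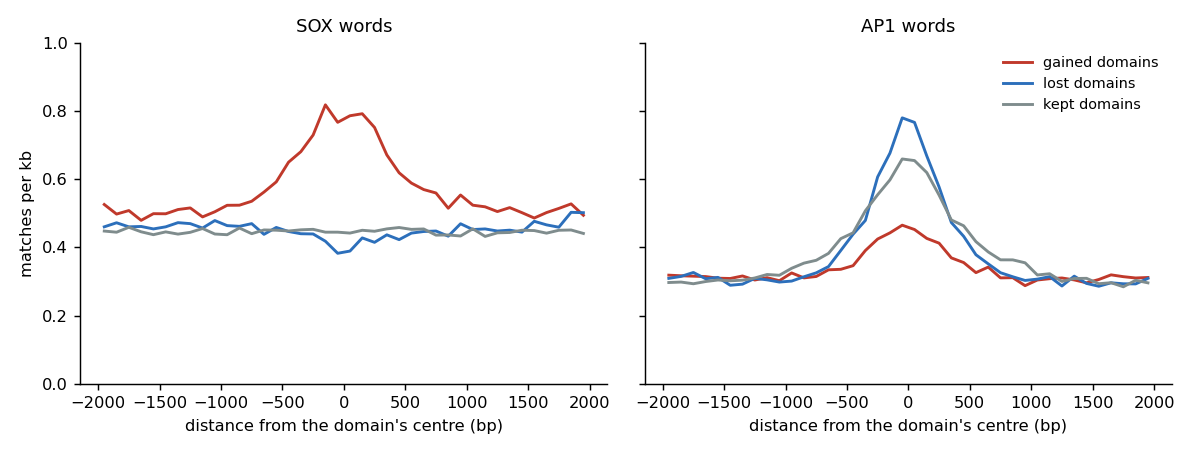
Matches per kb (vertical axis) of SOX words (left) and AP1 words (right) by distance in bp from the centre of gained (red), lost (blue) and kept (grey) domains, in steps of 100 bp. SOX words peak at the centre of gained domains, and AP1 words peak most at the centre of lost domains and least in gained ones.

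The other SOX9 forms were measured against the same no-DOX list, so the 3 comparisons are not independent, and their values are given side by side. That list came from the WT cells, and none exists for cells with ΔHMG or ΔTA without DOX. Differences between separately transduced cells therefore cannot be told apart from those with DOX for these forms. With ΔHMG-SOX9 22462 domains were gained (19.3% of its list) and 17274 lost (15.6%), and with ΔTA-SOX9 31867 were gained (25.8%) and 19356 lost (17.5%). The SOX word was in 31.7% of the domains gained with WT, 20.4% of those gained with ΔHMG (19.8 to 20.9) and 19.9% of those gained with ΔTA (19.5 to 20.4). In the bin of 40 to 45% GC it was in 34.9%, 24.8% and 23.7%. The AP1 word was in 19.4%, 28.7% and 33.4% of the gained domains in the order WT, ΔHMG and ΔTA, and in 29.8%, 23.5% and 19.7% of the lost domains. Domains of at least 1000 bp with a fold of at least 4 had no counterpart without DOX in 17.5% of cases with WT, 2.24% with ΔHMG and 6.98% with ΔTA. Lost among such domains of the no-DOX list were 5.08%, 1.08% and 1.89%. Gained domains were widest with WT, with a median of 630 bp against 406 bp and 493 bp.

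**Figure D3:**
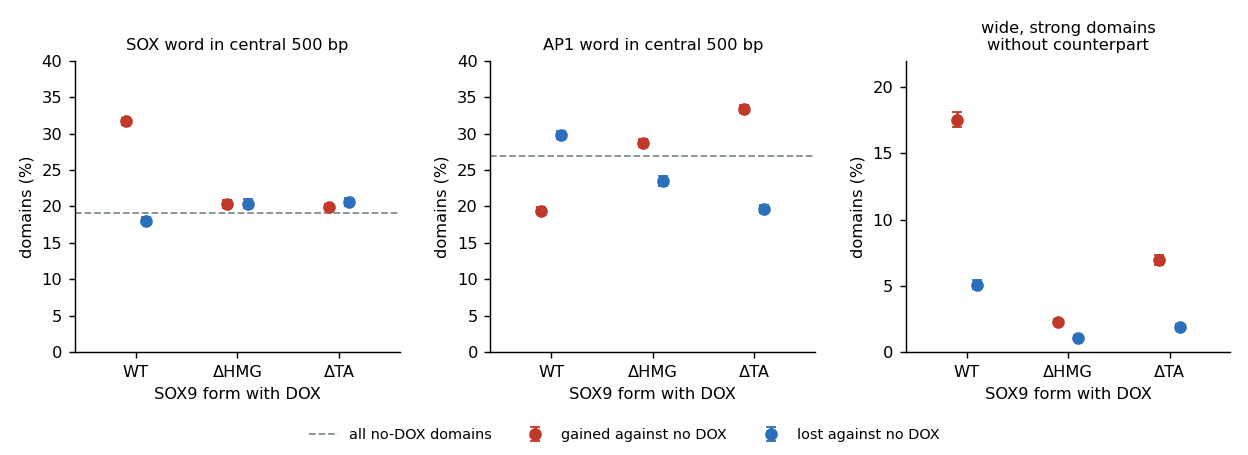
Percent of gained (red) and lost (blue) domains with a SOX word (left) or an AP1 word (middle) in their central 500 bp, and percent of domains at least 1000 bp wide with a fold of at least 4 that had no counterpart (right), for WT, ΔHMG- and ΔTA-SOX9, each against the one no-DOX list; bars, exact 95% intervals for counting error; dashed lines in the first panels, all no-DOX domains. WT-gained domains stand at 31.7% for SOX words where the other forms stand at 20.4% and 19.9%.

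Among kept domains, those that could be paired changed little in enrichment. The rest, which overlapped several domains or shared less than 50% of either, were not read this way. In 57355 pairs, in which each domain overlapped exactly 1 domain of the other list and at least 50% of each was shared, the median log2 ratio of fold (DOX over no DOX) was -0.04, with quartiles at -0.23 and 0.13. Median widths were 1119 bp without DOX and 1111 bp with it. Relative to the median pair, the fold was at least 1.5 times higher in 1260 pairs (2.197%) and at least 1.5 times lower in 1824 pairs (3.18%). These tails differed from each other in sequence in the same direction as the gained and lost domains. Set against all pairs, the AP1 share of the higher pairs was not lower, unlike that of gained against kept domains. A SOX word was in 26.2% of the higher pairs (23.8 to 28.7), 16.2% of the lower pairs (14.5 to 17.9) and 19.3% of all pairs, and an AP1 word in 27.2%, 35.3% and 26.6%.

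Among the 28840 pairs at least 1000 bp wide in both lists, the largest increase in fold, as a ratio, was at a domain on chromosome 2 (102281874 to 102283093 without DOX) that went from 2.70 to 6.87 and from 1220 bp to 1935 bp. Its nearest start site, 29114 bp away, was that of *Gm13868*. The next 4 went from 2.98 to 6.42 nearest *Gm19187*, 2.40 to 5.07 nearest *Gc*, 2.05 to 4.19 nearest *Gm5218* and 2.77 to 5.61 in an intron near *Nox1*, which encodes an NADPH oxidase. The largest decrease was in an intron near *Prokr1*, a receptor for prokineticins, from 5.58 to 2.36. Others went from 7.04 to 3.08 near *Ltbp1*, which encodes a protein that stores latent TGF-beta in the matrix, 5.23 to 2.33 near *Gabarapl2*, 7.25 to 3.22 near *C530050E15Rik* and 8.41 to 3.795 near *Zmat4*. The height of single domains rests on 1 pooled list each.

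The 6 gained domains with the largest fold were narrow. They measured 332 to 511 bp, with folds from 10.6 to 11.6, and none had a SOX or an AP1 word in its central 500 bp. The first lay in an exon of *Zfpm2* (chromosome 15, 40908601 to 40909030), and others lay in introns of *Cntnap2*, *Dcaf6*, *Serpina5* and *Ift74* and in an intergenic stretch of chromosome 15. None overlapped a domain of the ΔHMG or ΔTA list, and only the intergenic one overlapped a skin H3K4me1 domain, at W2 (2 weeks of DOX in the animal). The share of all gained domains without an overlap in the ΔHMG or ΔTA list is not given here. The 4 widest gained domains measured 4701 to 5274 bp at folds of 2.69 to 3.44. The widest covered chromosome 15, 92700682 to 92705955, inside *Pdzrn4* and over a start site of *4930588J15Rik*, and was also called with ΔHMG and ΔTA. The widest but one, in an intergenic stretch of chromosome 12 (117410137 to 117414942), was in the skin lists of W1, W2 and W12 and in neither variant list, and the fourth lay in an intron of *Slc44a1*, a choline transporter gene.

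The 6 lost domains with the largest fold all overlapped domains of both the ΔHMG and the ΔTA list. Such overlap was common, since only 15.6% of all no-DOX domains had no counterpart with ΔHMG and 17.5% none with ΔTA. The strongest, with a fold of 11.6 and a width of 384 bp, was in an intron of *Chrna9*, an acetylcholine receptor subunit (chromosome 5, 65973055 to 65973438), and held 2 AP1 words. The next, in an intron of *Drc7* with a fold of 10.4, held 1 AP1 word and was called in skin at D0 (before DOX), W1, W6 and W12. The others were in introns of *Rabgap1l*, *Slc14a2* and *Xiap*, which encodes a caspase inhibitor, and in an intergenic stretch of chromosome 1, with folds of 8.95 to 9.56. An AP1 word was present in 5 of the 6, and those at *Drc7* and *Xiap* also held a SOX word. Over the 113 lost domains with a fold of at least 7, the shares were 38.1% for AP1 and 20.4% for SOX words. The 4 widest lost domains, of 3470 to 4369 bp, had low folds of 2.04 to 3.08. They included one 7432 bp from a start site of *Ctsd*, which encodes a lysosomal protease, and one in an intron of *Edn2*, an endothelin, both present in skin at all 5 time points.

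Changed domains were counted within 50 kb of the 5′ end of 21938 protein-coding genes. Of these genes 43.8% had at least 2 gained and 43.2% at least 2 lost domains, so such a count by itself is common, and 4841 genes had both. At least 3 gained domains were near 23.6% and at least 3 lost near 23% of genes. At least 7 gained domains were near 276 genes (1.26%) and at least 7 lost near 110 (0.501%). In windows of 1 Mb the median was 12 gained and 9 lost. The window with the most gained domains, 57 with 12 lost, was on chromosome 6 (97000001 to 98000000) and holds *Mitf*. Another with 51 gained and 15 lost, on chromosome 2 (103000001 to 104000000), holds *Ehf* and *Elf5*. At most 39 were lost in 1 window, on chromosome 12 (32000001 to 33000000, with *Pik3cg* and *Nampt*) and on chromosome 9 (61000001 to 62000000, with *Tle3*, a corepressor).

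The protein-coding loci with the most gained domains were *Fam122a* and *Add3*. Loci here and below were chosen by their counts with WT, so lower counts with ΔHMG and ΔTA are favoured by that choice. Near *Fam122a*, an inhibitor of the phosphatase PP2A, 14 domains were gained and none was lost, covered length went from 2.97 kb to 18.1 kb, and 6 of the 14 had a SOX word. With ΔHMG 0 and with ΔTA 1 were gained there. Near *Add3*, a cytoskeletal adducin, 14 were gained and 1 was lost, and 3 and 2 were gained with ΔHMG and ΔTA. Near *Chl1*, an adhesion molecule of the L1 family, 13 were gained and none was lost, with 3.48 kb covered without DOX and 11.9 kb with it. The values with ΔHMG and ΔTA were 0 and 2 gained domains.

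Near *Ehf*, an ETS factor of epithelia, 12 were gained and none was lost, and covered length went from 9.65 kb to 30.5 kb, the largest difference in covered length of any protein-coding gene. The values with ΔHMG and ΔTA were 1 and 6 gained domains. Near *Gprin3* 12 were gained with WT, 0 with ΔHMG and 1 with ΔTA, coverage went from 1.74 kb to 17.2 kb, and 7 of the 12 had a SOX word. Near *Elmo1*, which helps to activate RAC in cell migration and engulfment, 11 were gained with WT and none with either variant, and 2.01 kb became 15.1 kb. In skin the *Elmo1* window held 22.2 kb at D0, 61.4 kb at W2, 44.6 kb at W6 and 37.4 kb at W12, whereas from D0 to W2 the *Ehf* window went from 73.9 kb to 59.1 kb, that of *Add3* from 51.4 kb to 43.6 kb and that of *Chl1* from 35.4 kb to 31.0 kb. *Gtf2f2*, a subunit of TFIIF, had 12 gained domains, and *9430069I07Rik* had 11. At the loci for which it is not given above, a SOX word was in fewer of the gained domains. These were 2 of 14 at *Add3*, 6 of 13 at *Chl1*, 3 of 12 at *Ehf*, 4 of 11 at *Elmo1*, 2 of 12 at *Gtf2f2* and 2 of 11 at *9430069I07Rik*. Over all gained domains the share was 31.7%.

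The locus with the most lost domains was *Btg1-ps1* on chromosome X, with 13 lost and none gained and 13.9 kb covered without DOX against 3.09 kb with it. The neighbouring *Btg1-ps2* had 10, and the windows of this pair overlap, so that domains between them are counted for both. Near *Plekha5* 12 were lost and 1 was gained, and 16.4 kb became 9.44 kb. With ΔHMG and ΔTA 6 were lost in each. *Klhdc8a*, with 11, and *Nuak2*, a kinase related to AMPK, with 10, lie side by side on chromosome 1 with overlapping windows. Around *Klhdc8a* coverage was 22.8 kb without DOX and 20.8 kb with it. Near *Cnga2*, a channel subunit of olfactory neurons, 10 were lost and none was gained (9.41 kb to 1.23 kb). *Uqcrfs1*, the iron-sulphur subunit of respiratory complex III, had 10 lost and 1 gained, and *Sipa1l2* had 9 lost and 3 gained. Of the 13 lost domains at *Btg1-ps1* 6 had an AP1 word and 1 a SOX word. An AP1 word was in 5 of 10 at *Btg1-ps2*, 2 of 12 at *Plekha5*, 2 of 11 at *Klhdc8a* and 1 of 10 at *Nuak2*. At *Cnga2* it was in 0 of 10, at *Uqcrfs1* in 2 of 10 and at *Sipa1l2* in 3 of 9, against 29.8% of all lost domains.

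Several lists of genes were read by the same counts beside those of all protein-coding genes, for which the median difference in covered length (DOX minus no DOX) was 0.031 kb with WT, 0 kb with ΔHMG and 0.179 kb with ΔTA. Members with at least 7 gained or 7 lost domains are named by rule, and other members given below were picked after their values were seen. Cartilage targets of SOX9 had the highest median difference of the 23 lists. At least 2 gained domains lay near 12 of the 15 genes (80%, against 43.8% of all genes) and at least 2 lost domains near 4 (26.7%, against 43.2%). The median difference in covered length was 3.15 kb, and 11 of 15 genes had more gained than lost domains. Summed over the windows 46 domains were gained and 20 lost, and the lost were 24.1% of the no-DOX domains, against 20.3% over all genes, so that the low count of genes with losses went with few domains to lose. In the same genes it was 0.365 kb with ΔHMG and 0.395 kb with ΔTA. Near *Col9a1*, a chain of collagen IX, 8 were gained and none lost, and coverage went from 0.619 kb to 10.2 kb. Near *Col2a1*, the main cartilage collagen, 5 were gained and none lost (8.66 kb to 16.3 kb). *Col11a1* had 7 gained and 1 lost, *Cnmd*, which encodes chondromodulin, 5 and 0, and *Col9a3* 4 and 1. *Sox5*, a partner of SOX9 in cartilage, went the other way with 0 gained and 5 lost, and its relative *Sox6* had 2 gained and 1 lost. *Acan*, the cartilage proteoglycan aggrecan, had 2 gained and 1 lost, with 4 gained with ΔHMG and 8 with ΔTA.

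Melanocyte markers had more coverage with DOX in 7 of 7 genes, against 50.7% of all protein-coding genes, with a median difference of 1.62 kb. Near *Mitf*, the master factor of pigment cells, 7 were gained and none lost (8.88 kb to 18.4 kb), and near *Sox10*, a neural crest relative of SOX9, 7 were gained and 1 lost (15.3 kb to 20.3 kb). *Tyrp1* had 4 gained and none lost. *Tyr* had no coverage without DOX and 1.62 kb with it, while *Dct* had 0 gained and 1 lost. With ΔHMG and ΔTA the median difference of the list was -0.502 kb and 0.010 kb. The bodies of *Tyr* and *Tyrp1* held no domain without DOX, and that of *Tyrp1* held none with it. Over the list covered length ranged from 0 to 18.4 kb without DOX and from 1.62 to 20.3 kb with it, and the share of melanocytes in the cultures was not tested.

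Epidermal lists were not uniform. The lists of epidermal transcription factors and epidermal differentiation genes had fewer gained than lost domains. Summed counts were 34 gained and 31 lost for basal keratins, integrins and hemidesmosome, and 26 and 33 for desmosome and adherens junction. Of 20 epidermal transcription factors 15 had at least 2 lost domains (75%, against 43.2% of all genes) and 8 at least 2 gained (40%), the median difference was -0.628 kb, and 12 had more lost than gained. Their windows held more coverage without DOX than those of all genes, at a median of 14.9 kb against 7.57 kb, so more domains could be lost. Summed over the windows, in which a domain near several genes counts for each, 50 domains were lost and 37 gained, and the lost were 20.5% of the no-DOX domains there, against 20.3% over all genes. With ΔHMG the median difference of the list was -0.859 kb and with ΔTA -0.126 kb. *Ehf*, described above, belongs to this list. *Grhl3*, a grainyhead factor of the skin barrier, had 6 lost and 1 gained (26.99 kb to 17.3 kb). At *Grhl3* the coverage was 22.2 kb with ΔHMG and 18.8 kb with ΔTA. Epidermal differentiation genes had at least 2 lost domains near 18 of 20 (90%) and at least 2 gained near 9 (45%), and 14 had more lost than gained, with a median difference in length of -0.524 kb (0.621 kb with ΔHMG and 0.158 kb with ΔTA). The summed counts were 68 lost and 35 gained, and the lost were 26.6% of the no-DOX domains. At least 2 lost domains were as common in the EGF receptor pathway (90% of genes), the Notch pathway (80%) and stress and wound response (80%), where 18.2%, 23.1% and 20% of the no-DOX domains were lost. *Dsc1*, a desmosomal cadherin of differentiating layers, had 8 lost and 1 gained, and *Cdsn*, corneodesmosin, had 7 gained and 3 lost. Neighbours such as *Sbsn* and *Krtdap*, each with 5 lost and 1 gained, have overlapping windows.

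Hair follicle lists were mixed. Of 20 hair follicle transcription factors 13 had at least 2 gained domains (65%, against 43.8% of all genes). At least 2 lost domains lay near 11 (55%, against 43.2%), and the median difference was 0.811 kb. Among 20 hair follicle stem cell and outer root sheath markers the counts were 10 and 11 (50% and 55%), with 0.777 kb. The windows of these lists held a median of 11.2 kb and 8.02 kb without DOX, against 7.57 kb for all genes. Lost domains were 17.1% and 25.4% of the no-DOX domains there, against 20.3% over all genes. *Cd200*, a surface protein of bulge stem cells, had 7 gained and none lost (5.11 kb to 7.98 kb), with 4 gained with ΔHMG and 6 with ΔTA. *Aspn*, a matrix proteoglycan, had 7 gained and 1 lost (2.56 kb to 10.9 kb). *Lrig1*, an EGF receptor inhibitor of the upper follicle, had 7 lost and 1 gained (22.95 kb to 15.8 kb). In the BMP and TGF-beta pathway 15 and 14 of 20 genes (75% and 70%) had at least 2 gained and at least 2 lost domains. There 24.1% of the no-DOX domains were lost, and the receptor gene *Bmpr1a* had 9 gained and 1 lost (11.6 kb to 17.9 kb). In the WNT pathway (10 and 10 of 20, or 50% each, with 20.2% of the no-DOX domains lost) the ligand gene *Wnt3* had 7 lost and 1 gained. *Dst*, a linker of hemidesmosomes to keratin filaments, had 7 gained and none lost (3.77 kb to 10.2 kb), and the adhesion molecule *Ncam1* 9 lost and 1 gained (12.3 kb to 7.86 kb).

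For the other lists the median difference in covered length is given. It was 1.64 kb for the YAP, TAZ and TEAD pathway, where 10 of 12 genes had more coverage with DOX against 50.7% of all genes, 1.14 kb for basal keratins, integrins and hemidesmosome, 0.778 kb for chromatin cofactors of SOX9 and 0.871 kb for the 4 RUNX factors. Smaller values were 0.734 kb for fibroblast markers, 0.501 kb for desmosome and adherens junction, 0.339 kb for Merkel and neural markers, 0.284 kb for mesenchymal and EMT genes and 0.010 kb for the Notch pathway. Negative medians were found for the WNT pathway (-0.257 kb), the BMP and TGF-beta pathway (-0.475 kb), AP1 factors (-0.507 kb), immune markers (-0.510 kb), the hedgehog pathway (-0.705 kb), the EGF receptor pathway (-0.716 kb), stress and wound response (-0.839 kb) and endothelial markers (-1.45 kb). The largest difference among the hair follicle factors was at *Tcf7l2*, a WNT effector (10.5 kb to 21.7 kb).

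**Figure D4:**
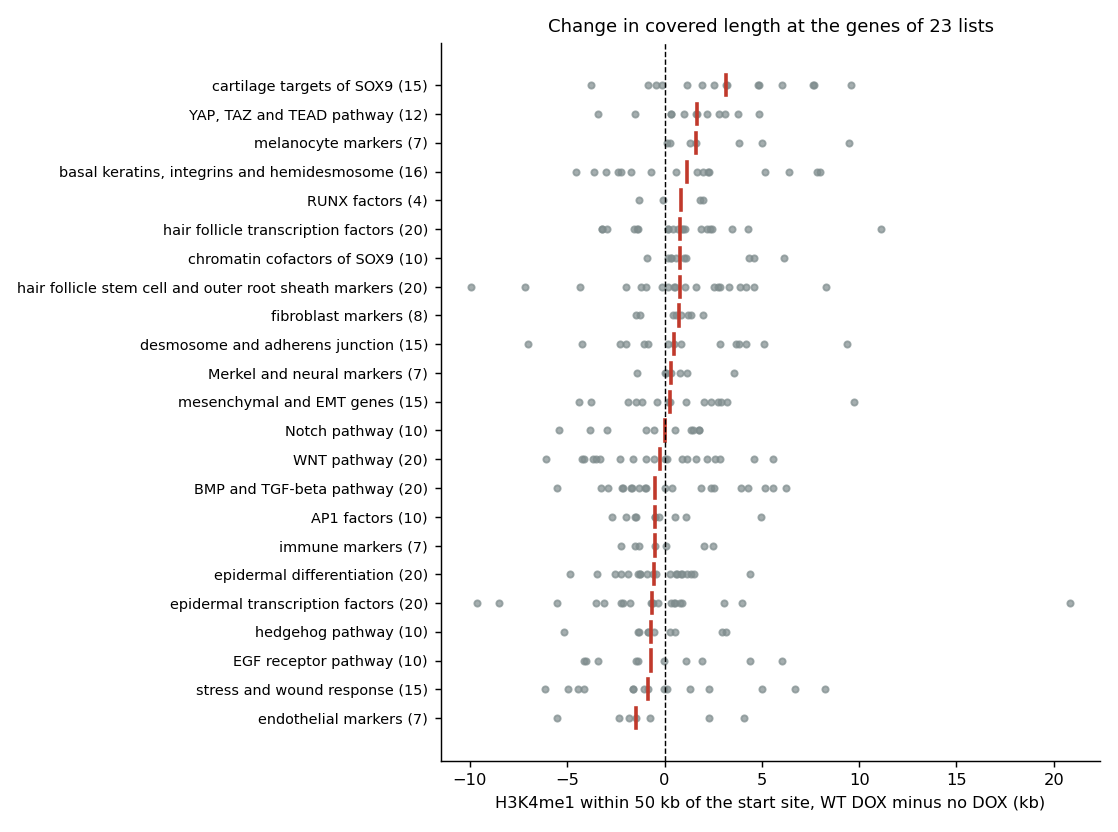
Difference in H3K4me1-covered length within 50 kb of the start site (WT DOX minus no DOX, kb, horizontal axis) for every gene (grey points) of 23 lists, with each list's median (red bar) and number of genes in parentheses; the dashed line is the median of all protein-coding genes, 0.031 kb. Cartilage targets of SOX9 stand at the top with a median of 3.15 kb, and the point at the far right is *Ehf*.

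At *Col9a1* (chromosome 1, 24177610 to 24252684, plus strand) the 8 gained domains ran from the start site into the gene, with the only kept domain about 49 kb upstream. Their folds lay between 2.44 and 4.60 and their widths between 302 and 2732 bp. The first (24177488 to 24177959) lay over the start site, and the widest (24194906 to 24197637) lay over a second annotated start site within the gene. None overlapped a domain of the ΔHMG or ΔTA list. The same held for every gained domain near *Col11a1* and *Cnmd*, but not for every one near *Col2a1* and *Col9a3*, and the share over all gained domains is not given here. Of the 8 at *Col9a1*, 5 overlapped a skin domain at some time point, none of them at D0. The one farthest into the gene, 24226986 to 24228076, holds the SOX word printed above. At *Col2a1* 4 of the 5 gained domains lay upstream, between 22.3 kb and 44.9 kb from the start site, while the domain in the first part of the gene was kept. At *Ehf* the 12 gained domains lay on both sides of the start site among 8 kept ones. Their folds were low, from 1.70 to 4.03, and 11 of the 12 lay in a skin domain of D0.

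**Figure D5:**
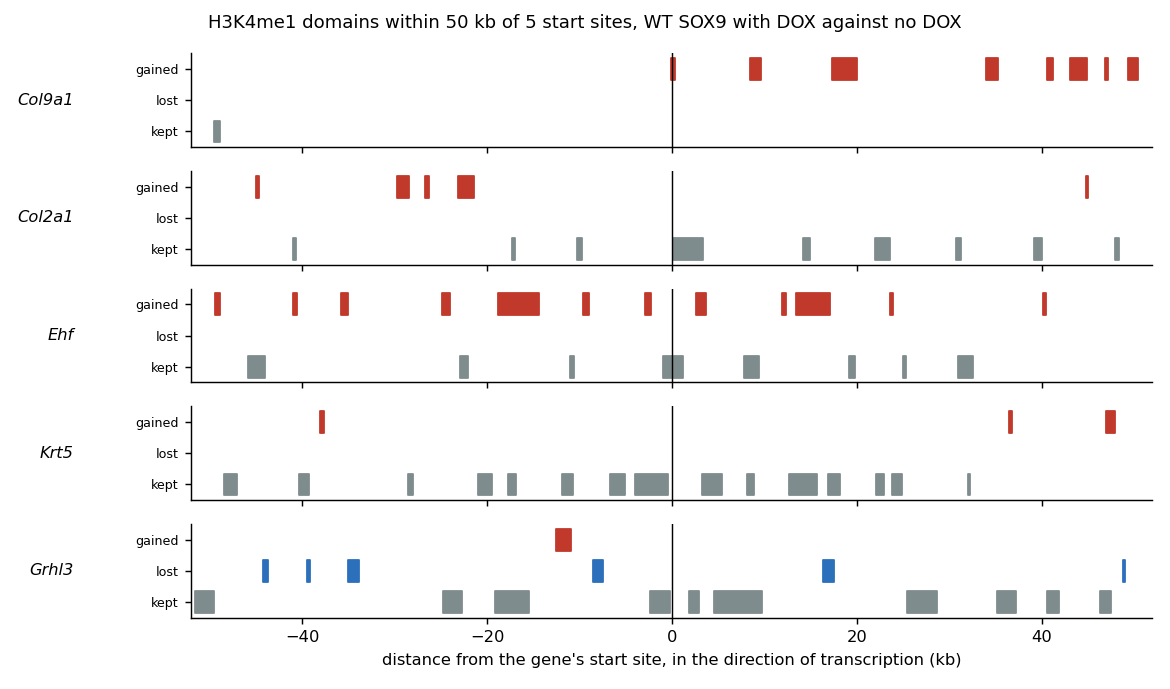
H3K4me1 domains within 50 kb of the start sites (vertical line) of 5 genes, by distance in kb in the direction of transcription (horizontal axis), as gained (red), lost (blue) and kept (grey) boxes drawn to scale. *Col9a1* has 8 gained domains from its start site onward, *Grhl3* has 6 lost and 1 gained, and at *Krt5* 15 domains were kept.

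At the genes the study names most, few domains were gained or lost, but covered length changed more at some of them. The difference (DOX minus no DOX) was 7.82 kb at *Krt5* and -6.1 kb at *Ctnnb1*. Both lay outside the 5th to 95th percentile of all protein-coding genes, -3.555 to 5.19 kb. *Runx1*, a factor of activated hair follicle stem cells, had 2 gained and 1 lost, and 5.57 kb became 7.54 kb, against 5.54 kb with ΔHMG and 9.01 kb with ΔTA. *Gata3*, an epidermal factor, had 1 gained and 2 lost (13.8 kb and 13.2 kb). *Trp63*, the master factor of stratified epithelia, had neither in its window (4.46 kb and 4.14 kb). That window ends 50 kb into a gene that spans chromosome 16, 25683763 to 25892102, and the rest of the gene was not counted. *Krt5*, the basal keratin, had 3 gained, none lost and 15 kept, and coverage went from 20.99 kb to 28.8 kb, against 19.9 kb with ΔHMG and 20.8 kb with ΔTA. *Ctnnb1*, which encodes beta-catenin, had no gained, 1 lost and 13 kept domains, and coverage went from 20.3 kb to 14.2 kb. *Vim*, the mesenchymal filament vimentin, had 2 gained and 1 lost (9.62 kb and 10.7 kb).

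The changed domains were looked up in the pooled H3K4me1 lists of EpdSCs sorted from the skin of male K14rtTA; TRE-myc-Sox9 mice before DOX (D0) and after 1, 2, 6 and 12 weeks (W1 to W12). The W12 cells came from newborn skin grafted onto immunocompromised female hosts and induced after healing, while the earlier time points came from the animals' own skin. In time order from D0 to W12, 29.9%, 30.2%, 36.4%, 33.1% and 29.8% of the gained domains overlapped a skin domain. Lost domains did so in 43.7%, 32.5%, 32.8%, 37.8% and 37.2%, and kept domains in 73.2%, 66.6%, 67.6%, 72.9% and 71.5%. In culture-gained domains the W2 list was thus the highest and in lost domains the D0 list. Present at W2 and not at D0 were 13.6% of the gained (13.3 to 14.0), 5.06% of the lost and 5.42% of the kept domains. Present at D0 and not at W2 were 7.16%, 15.9% and 10.96%. For comparison, 6.78% of the domains gained with ΔHMG and 6.80% of those gained with ΔTA were at W2 and not at D0. A skin H3K4me1 domain of any time point overlapped 49.8% of the gained, 55.4% of the lost and 84.0% of the kept domains. Of the wide and strong gained domains 20.3% overlapped a domain of D0 and 35.3% one of W2, and of the lost ones 44.2% and 30.6%. SOX words were in 35.2% of the gained domains found at W2 and not at D0 in 27.3% of those found at both and in 33.3% of those found at neither. The acetylated fraction was small. Skin H3K27ac peaks overlapped 3.33% of the gained domains at D0 and 5.72% at W2, 4.81% and 3.93% of the lost, and 19.1% and 20.1% of the kept domains.

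Chromosomes differed modestly. On the autosomes between 23.2% (chromosome 11) and 33.4% (chromosome 14) of DOX domains were gained and between 20.7% (chromosome 19) and 29.9% (chromosome 14) of no-DOX domains lost. On chromosome X both shares were highest among the chromosomes with more than 10 domains in each list, at 38.4% gained and 32.6% lost.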

How the data were processed

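Culture H3K4me1 was measured by MINT-ChIP in 2 libraries, a high and a low nuclease digest, which the authors demultiplexed, aligned to GRCm38/mm10 and pooled. The submitters' processing notes list bcl2fastq, Bowtie2 2.2.9, Picard, SAMtools 1.9, MACS2 2.1.1, SICER 0.0.36 and deepTools 2.5.4, and the study's methods name epic2 for H3K4me1 domains. The deposited culture lists instead have the columns of a MACS2 broadPeak file, so which caller made them is unsettled, and its settings are not given in the sources used here. Conditions were read from the list names, because the sample labels do not give DOX or the SOX9 form per sample. The score column of the culture lists, as deposited, is 10 times the −log10 q. Their enrichment column holds the fold over background that the authors' caller computed. The −log10 q column is as deposited, and the largest q was 0.0982. The deposited skin H3K4me1 lists carry a p-value per domain and were used for their positions, as were the skin H3K27ac peaks. Intervals on the mitochondrial genome, 2 in each culture list, were set aside.

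Overlaps, places, gene windows (50 kb on both sides of the 5′ end, GENCODE M21 basic) and word matches (RefSeq GRCm38.p6 sequence) were computed with Python 3.11.15, pandas 2.3.3, numpy 2.4.6 and scipy 1.17.1, and the overlap code was tested on simulated data. Read depth behind the lists is unknown, so no floor could be given. There is 1 list per condition, hence no test between conditions. Named were the 6 gained and the 6 lost domains with the largest fold and the 4 widest of each, the 8 loci with the most gained and the 8 with the most lost domains, the 5 pairs with the largest increase and the 5 with the largest decrease of fold, list members with at least 7 gained or 7 lost domains (14 genes, since 167 had at least 3), and *Sox9*, *Runx1*, *Gata3*, *Trp63*, *Krt5*, *Ctnnb1* and *Vim*. The members, gene lists and words were chosen with earlier results of these data known. Alternatives were a larger overlap, stricter scores and q values, lists of equal length, joined domains, autosomes alone, other distance limits and gene windows, and a narrower window for words.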

Additional observations from a re-analysis of the deposited data

How the results depend on the processing

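With only the domains above the median score in both lists, 20893 were gained and 18168 lost, and against the other list in full 10752 and 5359, which left 2081 and 873 genes with at least 2 gained or lost domains. With 25 kb on both sides of the 5′ end these were 4621 and 4425 genes. Fewer domains or shorter windows enter these counts. Gained and lost shares were 36.7% and 33.4% with both lists cut by score, against 29.1% and 25.1% as reported. Against the other list in full they were 18.9% and 9.86%. Lists of equal length gave 30723 gained and 29950 lost domains, and 8529 genes with at least 2 gained against 10378 with at least 2 lost, which turns round the reported order of 9612 and 9482. The share of distal domains was 85.5% of gained and 83.8% of lost domains with an overlap of 50% of the shorter domain, 81.1% of gained, 78.2% of lost and 71.1% of kept domains above the median score, and 85.7%, 83.9% and 71.2% at q of at most 0.01. With a distal limit of 1000 bp it was 92.6%, 91.7% and 80.5%, and with 10000 bp 62.9%, 59.0% and 47.6%. The share of gained domains in skin at W2 and not D0 was 13.2% with the larger overlap and 13.3% above the median score, and that of lost domains at D0 and not W2 15.1% above the median score and 16.3% at the stricter q. SOX words were in 31.0% of gained domains with the larger overlap, 29.7% above the median score (17.9% of lost) and 13.8% in the central 200 bp (7.16% of lost). The median log2 ratio of fold was -0.0277 above the median score. The cause of these shifts was not tested. Of 60 recomputed values 30 stayed near the reported one and 30 moved as given here. No paired analysis was possible because each condition has 1 pooled list with no replicate number, and no replicate could be left out for the same reason.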
